A study of Mus musculus with 21 samples.

Results

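Levels of 10 genes for amino acid uptake, serine and one-carbon metabolism and asparagine synthesis were followed in T cells from mouse spleen. They were chosen by name, with earlier results of these data known, and are 10 of the 55487 genes in the deposited count files. The set holds 5 transporter genes (Slc7a5, Slc3a2, Slc1a5, Slc7a1 and Slc38a2), 4 genes of the serine and mitochondrial folate route (Phgdh, Psat1, Shmt2 and Mthfd2) and Asns. RNA-seq gave 21 libraries of 4 groups. Wild type mice (WT, n = 5, all male) and mice of genotype Tet2-/-Tet3flx/flxCD4cre (DKO, n = 5) gave live CD4+ CD25- TCRb+ cells that did not bind the CD1d tetramer. In DKO mice Tet2 is lost in all cells, and Tet3 is removed in T cells by the Cre driven from CD4, so other cells of these mice lack Tet2 alone. DKO replicate 2 is female, and DKO replicates 4 and 5 carry the label young; ages are not given beyond it. DKO cells recovered after a first transplantation (TX1, n = 4, replicate 3 female) or a second one (TX2, n = 7, replicates 5 to 7 female) were sorted as live CD45.2+ CD45.1- cells. The transferred cells carry the same alleles as DKO cells, but their gate did not use CD25 or the tetramer, so gate and transfer cannot be told apart.

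The transferred libraries were nearly clonal. The most abundant T cell receptor took 75.4 to 95.7% of alpha chain reads and 85.6 to 99.97% of beta chain reads in each of them. TX2 replicates 1 to 4 shared a receptor pair, called clone line A here. TX2 replicates 5 to 7 shared another with TX1 replicate 3, called clone line B, and TX1 replicates 1, 2 and 4 each had a receptor of their own. TX2 libraries are therefore 2 clones and not 7 independent ones, and p-values that treat them as separate measure the spread between libraries. The labels do not say whether libraries came from separate animals.

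Reads in genes ranged from 26918548 to 30730877 per library. Tet3 reads came to 172 to 217 CPM (read counts scaled to library size with TMM factors) in WT and 86.3 to 105 in DKO, and Tet2 reads to 35.7 to 54.3 CPM and 39.0 to 54.2. Both values cover the whole gene and not the deleted part, which the labels do not give. Cd4 itself was at 1070 to 1813 CPM in WT and DKO but at 0.135 to 2.26 in 9 of the 11 transferred libraries, with 1003 in TX1 replicate 1 and 27.2 in TX1 replicate 3. Transferred cells are therefore called by their group and not as CD4 T cells. Cd3d, part of the T cell receptor complex, was at 295 to 578 CPM in all 11, and 7 CD4 T cell markers including both summed to 6309 to 8660 CPM in WT and DKO and 2703 to 5912 after transfer. In whole-sample RNA, fewer cells of a type and less RNA per cell cannot be told apart.

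Large neutral amino acids such as leucine enter activated T cells through SLC7A5, which needs SLC3A2, its heavy chain partner, to reach the membrane. SLC1A5 carries glutamine and other small neutral amino acids, SLC38A2 takes up small neutral amino acids with sodium, and SLC7A1 takes up arginine and lysine. PHGDH and PSAT1 act in sequence to make serine from a glycolytic intermediate. SHMT2 in mitochondria splits serine into glycine and a one-carbon unit, which MTHFD2 oxidises for use in nucleotide synthesis, and ASNS makes asparagine from aspartate and glutamine. Dividing T cells draw on all of these routes. Several of the genes are known targets of MYC or of ATF4, the transcription factor of the amino acid response.

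On GRCm38 (GENCODE M21) the transporter genes lie at chr8:121881150-121907694 (Slc7a5), chr19:8706882-8723369 (Slc3a2), chr7:16781340-16798274 (Slc1a5), chr5:148327410-148399904 (Slc7a1) and chr15:96687392-96699730 (Slc38a2). The enzyme genes lie at chr3:98313170-98339990 (Phgdh), chr19:15904678-15947337 (Psat1), chr10:127517123-127522444 (Shmt2), chr6:83305691-83325908 (Mthfd2) and chr6:7675169-7693254 (Asns). Slc1a5 is on the plus strand and the others are on the minus strand. Of the exon bases of Shmt2, 32 (1.03%) overlap Ndufa4l2, and the other members share none. A pseudogene, Phgdh-ps1, resembles Phgdh, and reads that fit both are set aside in these files. Mthfd2 ends 36.5 kb from Tet3 on the same chromosome, so it is the member nearest to a targeted gene.

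RefSeq promoter entries on GRCm38.p6 (250 bases before and 50 after a transcript start) were found for 8 of the 10 members, with 10 entries. Slc7a5 and Slc1a5 had no entry. Both strands were searched for TGATGNAA, the core of the element that ATF4 binds in amino acid response genes, for CACGTG, the E-box that MYC can bind, and for CCAAT, which was added after the sequences had been seen. None of the 3 overlaps another in these windows. TGATGNAA was in 3.97% of 32851 promoters in the RefSeq table, CACGTG in 7.15% and CCAAT in 37.4%. The promoter of Asns is shown because Asns differed most between WT and DKO. Those of Phgdh, Psat1 and Shmt2 are shown because their levels moved together across libraries. Matches are in capitals (ATTGG is CCAAT on the other strand), and all 4 entries are read from the minus strand: chr6:7693160-7693459 (Asns), chr3:98339920-98340219 (Phgdh), chr19:15925010-15925309 (Psat1, the first of its entries) and chr10:127522395-127522694 (Shmt2).
Asns: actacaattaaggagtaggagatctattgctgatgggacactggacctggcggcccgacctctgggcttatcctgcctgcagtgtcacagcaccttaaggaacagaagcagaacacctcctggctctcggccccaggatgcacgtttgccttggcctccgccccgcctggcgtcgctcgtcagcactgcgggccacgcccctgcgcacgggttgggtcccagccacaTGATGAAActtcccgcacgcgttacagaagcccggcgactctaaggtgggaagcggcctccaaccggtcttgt
Phgdh: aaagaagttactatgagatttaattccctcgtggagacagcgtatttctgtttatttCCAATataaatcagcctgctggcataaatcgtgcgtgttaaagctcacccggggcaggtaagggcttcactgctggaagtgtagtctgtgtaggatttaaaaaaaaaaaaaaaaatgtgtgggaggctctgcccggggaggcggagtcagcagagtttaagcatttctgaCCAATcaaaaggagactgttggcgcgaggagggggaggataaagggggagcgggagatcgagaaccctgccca
Psat1: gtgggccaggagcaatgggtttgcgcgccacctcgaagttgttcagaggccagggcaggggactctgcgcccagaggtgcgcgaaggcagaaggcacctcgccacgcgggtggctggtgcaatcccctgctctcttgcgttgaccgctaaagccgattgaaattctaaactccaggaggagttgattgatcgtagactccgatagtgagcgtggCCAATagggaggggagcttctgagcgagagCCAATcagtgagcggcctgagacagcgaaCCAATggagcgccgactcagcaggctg
Shmt2: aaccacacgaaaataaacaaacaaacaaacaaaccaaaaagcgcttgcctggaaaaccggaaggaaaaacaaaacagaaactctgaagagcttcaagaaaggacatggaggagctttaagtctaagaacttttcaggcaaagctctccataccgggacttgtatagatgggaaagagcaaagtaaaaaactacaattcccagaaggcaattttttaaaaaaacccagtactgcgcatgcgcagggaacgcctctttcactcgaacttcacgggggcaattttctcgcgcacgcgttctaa
Among the members, TGATGNAA was found in Asns alone, starting 23 bases before the transcript start. CACGTG was in none of the 10 entries. CCAAT was found in 4 members: Slc7a1 at 1 place, Phgdh at 2 places, and Psat1 and Mthfd2 at 3 places each. Shmt2, whose level followed those of Phgdh and Psat1, held none of the 3 motifs in this window. A match describes letters, not a bound site.

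Compared per kilobase of exon, Slc1a5 was the most abundant member in WT, at 40.7 CPM per kb, and its libraries did not overlap with those of any other member. Shmt2 (29.9), Slc3a2 (29.6), Phgdh (24.6) and Slc38a2 (23.8) followed, and neighbours in this order overlapped. Slc7a5 was at 19.2 CPM per kb, Mthfd2 at 13.9, Psat1 at 10.9 and Slc7a1 at 10.1. Asns was far below the rest, at 0.346 CPM per kb. In TX2 the order had changed. Shmt2 (164 CPM per kb) came first, then Phgdh (106), Psat1 (88.9) and Slc7a5 (68.3), with overlap between neighbours, and Slc1a5 had moved to the fifth place at 55.6.

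**Figure D1:**
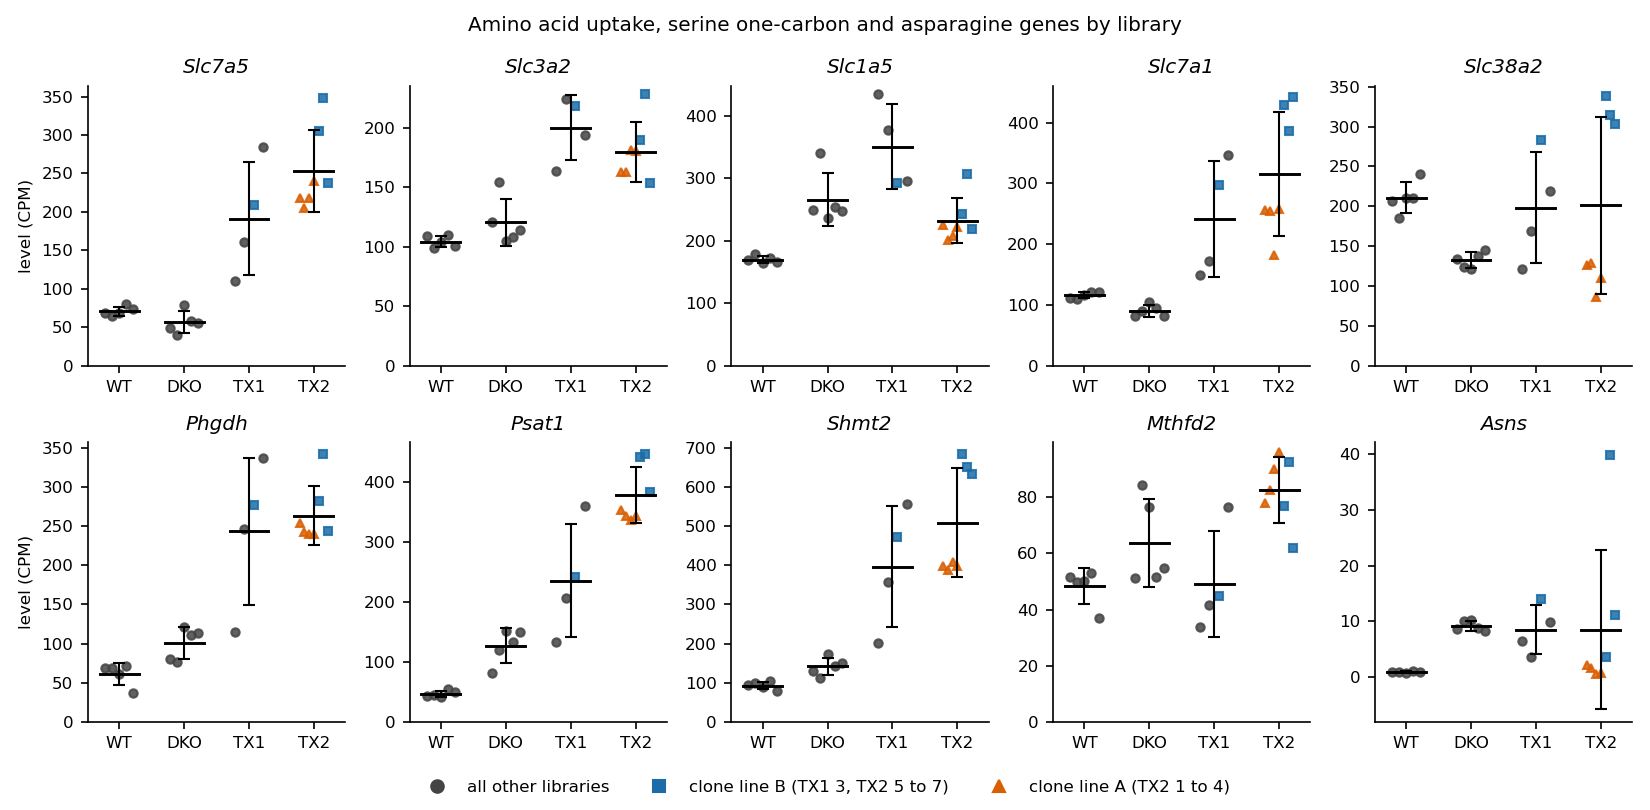
Level of each member (CPM) in every library of WT, DKO, TX1 and TX2; horizontal bars are group means, error bars 1 SD, and colours mark the clone lines. Slc7a5, Slc7a1, Phgdh, Psat1 and Shmt2 were highest in the transferred groups. Within TX2, the clone lines did not overlap for Slc38a2, Slc7a1, Shmt2, Psat1 and Asns.

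In DKO cells before any transfer, Phgdh, Psat1, Shmt2 and Asns were higher than in WT, Mthfd2 did not pass, and the transporters moved both ways. Mean Psat1 was 127 ± 29.3 CPM against 46.5 ± 5.88 in WT (SD, n = 5 each), and mean Asns 9.20 ± 0.840 against 0.948 ± 0.123. Of the 10 members, 7 were called by edgeR's quasi-likelihood test (Benjamini-Hochberg adjusted p below 0.05, two-sided), where 43.4% of all 13700 genes tested were. Of them 5 rose (22.7% of all genes did) and 2 fell (20.7% did). The median log2 fold change was 0.50 over the members and -0.01 over all genes tested.

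The transporters parted. Slc1a5, the glutamine carrier, was at 250, 340, 237, 254 and 248 CPM in DKO replicates 1 to 5 and at 164 to 178 in WT. All DKO libraries were above all WT ones, and the log2 fold change was 0.64 ± 0.10 (SE, adjusted p = 0.00063). The DKO libraries held 134, 123, 122, 137 and 146 CPM of Slc38a2, and the WT libraries 206, 186, 210, 211 and 240. It fell by 0.67 on the log2 scale (SE 0.09, adjusted p = 0.00028), without overlap. Slc7a1, the arginine carrier, ranged from 81.3 to 105 CPM in DKO against 110 to 121 in WT and fell by 0.36 (SE 0.09, adjusted p = 0.00763). Slc7a5 and its partner Slc3a2 did not pass, with log2 fold changes of -0.33 ± 0.16 (adjusted p = 0.107) and 0.21 ± 0.11 (adjusted p = 0.141). DKO replicate 3 had the highest Slc7a5 of its group at 78.9 CPM against 40.5 to 58.5 in the others, and without it Slc7a5 was lower at -0.47 (adjusted p = 0.0116).

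Both serine synthesis genes rose. Psat1 levels in DKO replicates 1 to 5 were 80.7, 120, 152, 134 and 149 CPM, against 42.8, 44.6, 40.7, 54.6 and 49.4 in WT, a log2 fold change of 1.45 ± 0.17 (adjusted p = 0.000103). Phgdh levels were 80.1, 77.1, 121, 110 and 113 CPM in DKO against 68.9, 68.2, 61.4, 71.1 and 36.7 in WT, with a smaller fold change of 0.71 ± 0.19 (adjusted p = 0.0111). Neither gene overlapped between the groups, though the lowest DKO value of Phgdh lay close to the highest WT one. Shmt2 rose too, from 93.0 ± 9.03 to 142 ± 22.3 CPM (0.61 ± 0.12, adjusted p = 0.0019). Mthfd2 missed the threshold at 0.40 ± 0.16 (adjusted p = 0.066). Its DKO libraries fell apart into 84.4 and 76.7 CPM in replicates 2 and 3 and 51.1 to 54.6 in the others, which lay within or just above the WT range of 37.1 to 52.9. Without DKO replicate 1 it was called at 0.48 (adjusted p = 0.0417).

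Asns had the largest fold change of the members. Its 5 DKO libraries lay between 8.34 and 10.2 CPM (median 8.77) and its 5 WT libraries between 0.773 and 1.07 (median 0.986), that is 245 to 294 reads against 21 to 30. The log2 fold change was 3.27 ± 0.17 (adjusted p = 1.58e-06), and the ratio of means was 9.71. The DKO libraries varied less for Asns, by 9.39% of their mean, than for Psat1 (22.7%). Atf4 itself did not pass, at -0.16 ± 0.12 (adjusted p = 0.289). In all, 7 members had no overlap between DKO and WT, where 34.1% of genes tested did.

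The calls of Phgdh and Slc7a1 in this comparison were lost when either library set or the DKO libraries not labelled young were used alone, with unchanged direction (Phgdh 0.49 to 1.07, adjusted p = 0.0559 to 0.091; Slc7a1 -0.45 to -0.29, adjusted p = 0.0556 to 0.0938). Markers of division moved with these rises: Mki67 ranged from 223 to 572 CPM in DKO against 35.3 to 65.8 in WT (2.79 ± 0.27, adjusted p = 4.6e-05). CD8 T cell markers, mostly Cd8b1, summed to 30.2 to 39.2 CPM in WT and 0.221 to 6.34 in DKO, and neutrophil markers reached 172 CPM in DKO against 65.2 in WT. Of the B cell markers, Pax5 was at 3.41 to 111 CPM in DKO and 0.355 to 1.94 in WT, while Cd79a was at most 5.31 CPM in either. Of the NK cell markers, Klrb1c was at 26.0 to 48.0 CPM in DKO and 1.91 to 5.08 in WT, and Ncr1 was at most 2.79. Their part in the members' changes was not tested.

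After transfer, Slc7a5, Slc3a2, Slc7a1, Phgdh and Shmt2 rose above their DKO levels in TX1, and the same 5 and Psat1 rose in TX2. Slc7a5 reached 194 ± 73.3 CPM in TX1 and 252 ± 50.1 in TX2, against 57.1 ± 15.0 in DKO. Asns and Mthfd2 did not pass in either. Of the 10 members, 5 rose and 0 fell in TX1 (11.7% of all 13954 genes tested rose), and 6 rose and 0 fell in TX2 (25.6% of 14034 rose). The median log2 fold change was 0.82 in TX1 and 0.96 in TX2, beside 0.02 and -0.01 over all genes. Groups did not overlap for 4 members in TX1 (18.7% of all genes) and 5 in TX2 (33.2%). The comparisons share their DKO libraries, so their values are given side by side and are not independent.

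Among transporters, the TX1 libraries had 111, 161, 209 and 284 CPM of Slc7a5 (replicates 1 to 4), and those of TX2 had 204 to 348 (median 237). Every transferred library lay above the highest DKO value, 78.9 CPM. The log2 fold change was 1.76 ± 0.28 in TX1 (adjusted p = 0.00757) and 2.14 ± 0.19 in TX2 (adjusted p = 6.58e-06). Its partner Slc3a2 moved less, by 0.74 ± 0.14 (adjusted p = 0.00992) and 0.56 ± 0.12 (adjusted p = 0.0024). TX2 replicate 7 (153 CPM) lay just under DKO replicate 2 (155 CPM) for Slc3a2, so that TX2 and DKO overlapped. The arginine carrier Slc7a1, lower in DKO than in WT, was at 149, 172, 297 and 346 CPM in TX1 and 183 to 442 (median 258) in TX2. It rose by 1.42 ± 0.24 (adjusted p = 0.00847) and 1.77 ± 0.21 (adjusted p = 4.28e-05).

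Slc1a5 and Slc38a2 did not pass in either. Slc1a5 was at 434, 377, 293 and 296 CPM in TX1 (0.41 ± 0.16, adjusted p = 0.0943) and at 201 to 307 (median 223) in TX2 (-0.22 ± 0.12, adjusted p = 0.137). Without TX2 replicate 6, the highest of its group, Slc1a5 was lower than in DKO at -0.29 and was called. It was also called lower with labelled sex as a model term (-0.28, adjusted p = 0.0231) and with clone line A alone (-0.32, adjusted p = 0.0356). Line A is a single clone, so its p-value measures the spread between libraries. In TX1 Slc1a5 was called higher in 1 edgeR fit of all 4 groups (0.40, adjusted p = 0.0387). Slc38a2 was at 121, 170, 283 and 219 CPM in TX1 (0.59 ± 0.21, adjusted p = 0.0821). In TX2 it ranged from 85.7 to 338 CPM with a median of 129 (0.56 ± 0.34, adjusted p = 0.184), and no library lay between 129 and 303 CPM.

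Phgdh was at 115, 246, 276 and 336 CPM in TX1 and at 239 to 342 (median 244) in TX2, against 77.1 to 121 in DKO. It rose by 1.28 ± 0.29 (adjusted p = 0.0177) and 1.36 ± 0.14 (adjusted p = 1.75e-05). TX1 replicate 1 lay within the DKO range, and the call in TX1 was lost without TX1 replicate 3 (adjusted p = 0.0517). Psat1, the next enzyme, was at 133, 206, 241 and 360 CPM in TX1 and 336 to 446 (median 352) in TX2, against 80.7 to 152 in DKO. It missed the threshold in TX1 at 0.89 ± 0.28 (adjusted p = 0.0544) and rose in TX2 by 1.55 ± 0.15 (adjusted p = 1.19e-05). DESeq2 called Psat1 in TX1 at 0.87 (adjusted p = 0.0286), and so did 1 edgeR fit of all 4 groups at 0.87 (adjusted p = 0.00437). Without TX1 replicate 1, the lowest of its group, Psat1 and Slc38a2 were called in TX1 at 1.09 and 0.76.

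Shmt2 was at 201, 357, 472 and 556 CPM in TX1 and 389 to 684 (median 408) in TX2. Each transferred library exceeded the highest DKO value, 172 CPM, and the log2 fold changes were 1.49 ± 0.27 (adjusted p = 0.00917) and 1.81 ± 0.19 (adjusted p = 1.7e-05). Mthfd2, which acts next to Shmt2, was at 33.8, 41.6, 44.8 and 76.5 CPM in TX1 and 62.0 to 96.3 (median 82.7) in TX2. Its log2 fold changes were -0.36 ± 0.26 (adjusted p = 0.35) and 0.36 ± 0.16 (adjusted p = 0.0715). It was called in TX2 when DKO replicate 2, DKO replicate 3 or TX2 replicate 7 was left out, at 0.30 to 0.48 over all omissions.

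Asns was at 6.53, 3.71, 14.0 and 9.94 CPM in TX1 and at 0.581 to 39.8 (median 2.29) in TX2, against 8.34 to 10.2 in DKO. The group means were 8.68 ± 4.49 CPM in TX1, 8.42 ± 14.1 in TX2 and 9.28 ± 0.824 in DKO, and the transferred libraries spread far to both sides of DKO. The log2 fold changes were -0.10 ± 0.33 (adjusted p = 0.87) and -0.14 ± 0.91 (adjusted p = 0.906). With labelled sex as a model term (TX2 females are all of line B), Asns was lower in TX2 at -2.14 (adjusted p = 0.0395).

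Myc rose with these genes, to 362 ± 127 CPM in TX1 and 284 ± 88.7 in TX2 from 108 ± 29.2 in DKO (1.74 ± 0.30, adjusted p = 0.00864; 1.39 ± 0.26, adjusted p = 0.000821). Mki67 did not pass in either (-0.15 ± 0.41, adjusted p = 0.828; 0.25 ± 0.23, adjusted p = 0.383), and neither did Atf4 (0.33 ± 0.13, adjusted p = 0.0987; 0.32 ± 0.26, adjusted p = 0.321). TX1 replicate 1, lowest of its group for Slc7a5, Phgdh, Psat1 and Shmt2, was also lowest for Myc, at 191 CPM. For Slc1a5 the same library was the highest of its group, at 434 CPM. The part of Myc in the members' levels was not tested. In TX1 no member was called when the first library set (numbers 1 to 3) was used alone, where no gene at all was called, or when the DKO libraries labelled young were left out, where 3 genes were. The log2 fold changes stayed close to those over all libraries, at 1.53 and 1.77 for Slc7a5 and 1.32 and 1.52 for Shmt2.

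**Figure D2:**
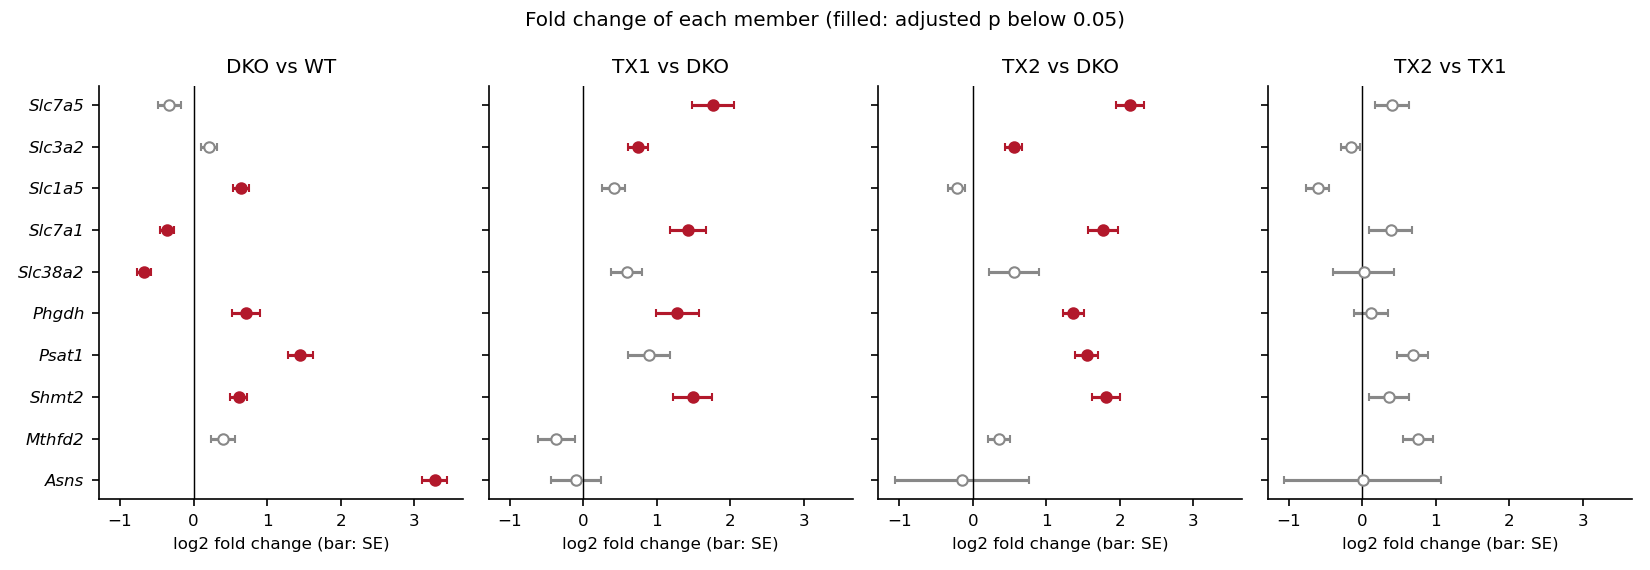
Log2 fold change of each member (x axis, bars are standard errors) in 4 comparisons; filled points passed the adjusted p threshold. Asns stands at 3.27 in DKO against WT and at -0.10 and -0.14 after transfer against DKO, whereas Slc7a5 goes from -0.33 to 1.76 and 2.14, and no point is filled for TX2 against TX1.

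Measured against WT, the transferred cells had 8 members higher in TX1 and 9 in TX2, and 0 lower in either. The share of all genes called higher was 26.1% and 33.4%. Psat1 was 5.11 times the WT mean in TX1 (2.35 ± 0.25, adjusted p = 7.63e-05) and 7.97 times in TX2 (2.99 ± 0.12, adjusted p = 2.51e-09). Shmt2 followed at 4.30 and 5.36 times and Phgdh at 4.00 and 4.21 times, while Slc7a5 was at 2.71 and 3.49 times. Slc38a2 did not pass against WT in TX1 (-0.07 ± 0.22, adjusted p = 0.796) or TX2 (-0.11 ± 0.34, adjusted p = 0.793). In TX2 line A alone was lower (-0.91, adjusted p = 4.15e-05) and line B alone higher (0.60, adjusted p = 0.000478). Each line is a single clone, so the p-values of the lines measure the spread between libraries and not between clones. Mthfd2 was at 49.4 ± 19.2 CPM in TX1 against 48.2 ± 6.51 in WT (0.04 ± 0.23, adjusted p = 0.906) but rose in TX2 (0.75 ± 0.13, adjusted p = 0.00021). Groups did not overlap for 8 members in both cases, where 41.7% and 49.2% of all genes tested did not.

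Asns was 9.13 times WT in TX1 (3.18 ± 0.38, adjusted p = 0.000145). In TX2 its fold change of 3.14 ± 1.04 (adjusted p = 0.0181) rested on few libraries, since TX2 and WT overlapped. Without TX2 replicate 6 it was 1.77 (adjusted p = 0.0377), and clone line A alone gave 0.45 ± 0.38 (adjusted p = 0.297).

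Between the second and first transfer, edgeR's quasi-likelihood test called 0 of 10 members, where 0.0431% of 13907 genes tested (6 genes) were called. The 3 members with the lowest adjusted p were Slc1a5 (-0.61 ± 0.15), Psat1 (0.69 ± 0.21) and Mthfd2 (0.75 ± 0.20), at 0.0922, 0.116 and 0.0964. DESeq2 called these 3 in the same directions, and edgeR did so without TX1 replicate 4, the only TX1 library of the second set. Calls over all genes rose as well in these fits, to 1435 of 16131 and 1318 of 14527 genes. Slc1a5 was at 232 ± 36.6 CPM in TX2 and 353 ± 79.7 in TX1, and Mthfd2 at 82.7 ± 12.3 and 49.1 ± 17.6. TX1 and TX2 overlapped for all 10 members, and 3.98% of genes tested did not overlap.

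Within the second transfer, libraries of line A and line B did not overlap for 5 of the 10 members, all 5 higher in line B. This is no larger a share than among all genes, where 51.4% of 13920 did not overlap between the lines in either direction. Directions were not counted over all genes. Each line is a single clone, so these values have no test of lines. Where a single line is set against another group, the p-value measures the spread between libraries and not between clones. The lines also differ in labelled sex, line A being male and line B female.

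Slc38a2 was at 127, 129, 85.7 and 110 CPM in line A and 338, 315 and 303 in line B, 2.82 times as high on average. Line A lay within or below the DKO range of 122 to 146 CPM, and line B lay above every WT library. Against DKO alone, line B was higher by 1.27 (adjusted p = 4.76e-05) and line A was at -0.24 (adjusted p = 0.103). Slc7a1 was at 257, 254, 183 and 258 CPM in line A and 429, 386 and 442 in line B, a ratio of 1.76. Shmt2 was at 389 to 408 CPM in line A and 634 to 684 in line B (1.65 times), and Psat1 at 336 to 352 and 383 to 446 (1.23 times).

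Asns was at 2.29, 1.58, 0.581 and 0.766 CPM in line A, that is 17 to 67 reads, and at 3.61, 39.8 and 11.2 in line B. Line A thus reached down to the WT level of 0.773 to 1.07 CPM, and against DKO it was lower by 2.83 on the log2 scale (log2 fold change -2.83 ± 0.37, adjusted p = 0.000188). The libraries of line B, which share a receptor, differed among themselves from 107 to 1265 reads. Atf4 was at 123 to 136 CPM in line A and 268 to 301 in line B, without overlap, and Myc at 169 to 273 and 308 to 416. The other 5 members overlapped between the lines. Mthfd2 was the one with a lower mean in line B, 77.3 against 86.8 CPM.

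Line B also allowed a look at 1 clone across both transfers. TX1 replicate 3, its single library of the first transfer, lay below all 3 second-transfer libraries for 6 members and above all 3 for 0. This is no larger a share than among all genes, of which 71.2% lay outside in either direction. Directions were not counted over all genes. The 6 were Slc7a5 (209 against 237 to 348 CPM), Slc7a1 (297 against 386 to 442), Slc38a2 (283 against 303 to 338), Psat1 (241 against 383 to 446), Shmt2 (472 against 634 to 684) and Mthfd2 (44.8 against 62.0 to 92.7). Psat1 and Mthfd2 had the largest ratios of second to first transfer, at 1.76 and 1.73. Asns was at 14.0 CPM in this library, within the range of its later ones. With 1 library there is no test.

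Line B libraries of the second transfer also held more RNA of B cell, neutrophil and macrophage markers. B cell markers summed to 55.4 to 153 CPM against 0.899 to 1.47 in line A, neutrophil markers to 47.8 to 114 against 0 to 0.572, and macrophage markers, led by Lyz2, to 49.9 to 80.9 against 5.88 to 20.8. NK cell markers did not move together. Eomes, which T cells can also express, was at 74.3 to 420 CPM in line B and 5.50 to 6.59 in line A, Ncr1 was at 0.503 to 0.945 and 6.49 to 14.3, Klrb1c overlapped, and Klra8 was at 0 in all of them. Erythroid markers reached 556 CPM in TX2 replicate 7, and CD4 T cell markers summed to 3160 to 3649 CPM in line B and 4614 to 5629 in line A. TX1 replicate 3, of the same clone as line B, held 0.712 CPM of B cell and 0 of neutrophil markers. It had Slc38a2 at 283, Slc7a1 at 297, Shmt2 at 472 and Asns at 14.0 CPM, each above every line A library. Psat1, at 241 CPM, lay below every line A library (336 to 352). TX1 replicate 3 is a single library and differs from line A in clone, transfer and labelled sex, which cannot be told apart. The part of these cells in the difference between the lines in TX2 was not tested.

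**Figure D3:**
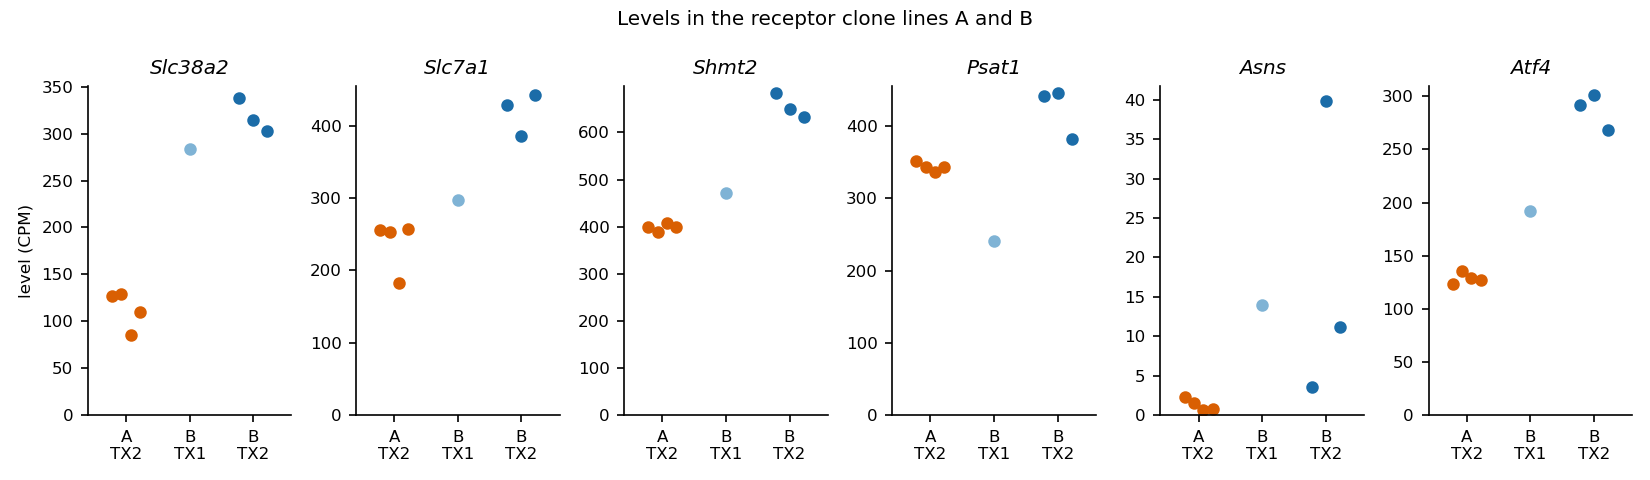
Level (CPM) of 5 members and Atf4 in clone line A (4 TX2 libraries), the TX1 library of clone line B and the 3 TX2 libraries of clone line B; each point is a library. Line B lies above line A in TX2 in each panel, and Asns spreads from 3.61 to 39.8 CPM within line B.

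Genes around the members were described by lists. Over all genes tested, 22.7% rose and 20.7% fell in DKO against WT, 11.7% and 7.97% in TX1 against DKO and 25.6% and 26.1% in TX2 against DKO, with medians of -0.01, 0.02 and -0.01, and the counts of each list stand beside these shares. Of 20 cytosolic aminoacyl-tRNA synthetase genes, which charge tRNAs with amino acids, 8 rose and 0 fell in DKO against WT. In TX1 against DKO 11 rose and in TX2 against DKO 18 rose, and 0 fell in either. Their median log2 fold change was 0.21, 0.43 and 0.70 in these comparisons. Vars, for valine, was at 166 ± 33.4 CPM in WT, 291 ± 40.9 in DKO, 741 ± 193 in TX1 and 697 ± 141 in TX2, each mean from its own pairwise fit. Mars1, for methionine, rose by 0.77 ± 0.17 in TX1 (adjusted p = 0.0168) and 1.02 ± 0.20 in TX2 (adjusted p = 0.00117).

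Of the further genes of serine, folate and one-carbon metabolism, 7 of 20 measured rose and 5 fell in DKO. The share that fell was near that of all genes, 20.7%. In TX1 10 of 20 rose and 1 fell (11.7% of all genes rose), and in TX2 14 of 19 rose and 1 fell (25.6% rose). In DKO Tyms, the enzyme of thymidylate synthesis, rose by 2.35 ± 0.32, while Fpgs, which adds glutamates to folate, fell by 0.68 (SE 0.13, adjusted p = 0.00147). After transfer Fpgs rose instead, by 1.93 ± 0.22 in TX1 and 2.17 ± 0.14 in TX2. The folate carrier Slc19a1 was at 30.7 ± 7.63 CPM in DKO and 128 ± 33.9 in TX2, with a mean of 157 in TX1 (2.35 ± 0.32, adjusted p = 0.00602; 2.05 ± 0.22, adjusted p = 2.52e-05). Shmt1, the cytosolic partner of Shmt2, rose by 1.75 ± 0.43 and 1.91 ± 0.26.

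Other amino acid transporter genes changed in both directions. Of 10 measured, 4 rose and 1 fell in DKO, and 2 rose and 2 fell in TX1. Of 11 in TX2, 3 rose and 2 fell, which is no larger a change than among all genes (25.6% and 26.1%). The glutamine carrier Slc38a1 rose by 0.42 ± 0.11 in DKO against WT (adjusted p = 0.00922), and against DKO by 0.88 ± 0.19 in TX1 (adjusted p = 0.0145) and 0.95 ± 0.16 in TX2 (adjusted p = 0.000399). Between TX2 and TX1 it did not pass (0.11 ± 0.20, adjusted p = 0.776). Slc7a6 rose in TX1 (0.74 ± 0.14) and TX2 (0.51 ± 0.18). Slc38a9, an arginine sensor of the lysosome, fell by 0.56 (SE 0.16) and 0.79 (SE 0.13). Of 11 genes for glutamine, glutamate and proline, 3 rose in TX1, and 5 rose and 1 fell in TX2. In DKO 4 of 10 rose, among them Got2, a mitochondrial aspartate aminotransferase (0.75 ± 0.09, adjusted p = 0.00011).

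In the ATF4 and amino acid response list, 3 of 12 measured were higher and 3 lower in DKO. These shares are near those of all genes, 22.7% and 20.7%. Sesn2 (1.65 ± 0.21, adjusted p = 0.000183), Ddit4 (1.61 ± 0.34) and Eif4ebp1 (1.12 ± 0.18), all of which restrain growth signalling or translation, rose, and Pck2 fell by 0.57 (SE 0.17, adjusted p = 0.0198). In TX1 3 of 13 rose and 0 fell, and in TX2 3 of 14 rose and 1 fell, the latter being Ppp1r15a (-2.82 ± 0.61, adjusted p = 0.00236). The share that rose in TX2 was near that of all genes, 25.6%. Among 20 genes of amino acid sensing upstream of mTORC1, 6 rose and 3 fell in DKO and 3 rose in TX1, shares near those of all genes. In TX2 0 rose and 4 fell, where 25.6% and 26.1% of all genes did, so the share that fell was no larger than among all genes. Castor1, an arginine sensor, fell by 1.96 (SE 0.43, adjusted p = 0.00241) in TX2 and Sesn3 by 1.98 (SE 0.23). In the list of Myc and division genes, 6 of 7 measured rose in DKO, 1 (Myc) in TX1 and 3 in TX2.

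Across the 21 libraries the members fell into sets that ranked alike and others that stood alone. Spearman's rho was 0.95 between Slc7a5 and Slc7a1, 0.93 between Phgdh and Psat1, 0.95 between Phgdh and Shmt2 and 0.96 between Psat1 and Shmt2. Slc7a5 and its partner Slc3a2 reached 0.71, and Slc3a2 ranked 1633 of the 9442 genes with a mean of at least 5 CPM by likeness to Slc7a5. By likeness to Phgdh, Shmt2 ranked 32 and Psat1 ranked 140 of 9442, so many genes outside the members were closer to Phgdh. Slc38a2 (mean rho 0.14 with the other 9), Mthfd2 (0.27), Asns (0.31) and Slc1a5 (0.31) were least like the rest, with Slc38a2 at -0.23 against Mthfd2. Asns and Slc1a5 were most like each other (0.68). The libraries share groups, clones and sets, so these values are descriptions.

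The genes most like Slc7a5 were Slc7a1 (0.95), Pwp1 (0.94), Pfas (0.93), Mat2a (0.93) and Timm8a1 (0.93). Those most like Phgdh were Nap1l1 (0.98), Yars2 (0.97), Drg2 (0.97), Ccr2 (0.97) and Tomm5 (0.97). For Mthfd2 the closest, Snrnp27 (0.84), Dera (0.83), Slc25a4 (0.81), Atp6v0b (0.80) and Nt5c3b (0.80), were less alike than for the other 2.

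**Figure D4:**
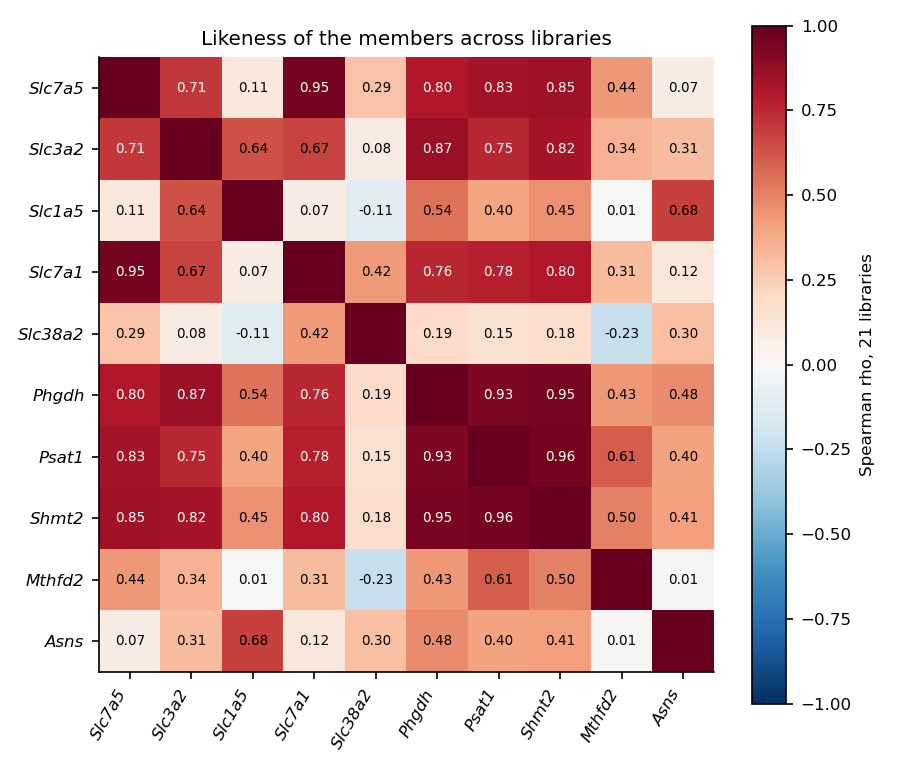
Spearman's rho between each pair of members over 21 libraries, from blue (-1) to red (1). Slc7a5 with Slc7a1, and Phgdh, Psat1 and Shmt2 with each other, lie at 0.93 to 0.96, while Slc38a2, Mthfd2, Asns and Slc1a5 have mostly pale cells.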

How the data were processed

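The deposited tables of each library hold counts, that is whole reads for 55487 Ensembl genes as STAR writes them; the unstranded column was used, since stranded reads split about evenly. Builds mm10 and GRCm38, STAR 2.7.5a, fastp 0.21.0 and DESeq2 are named in the submitters' processing notes. Receptor tables, also deposited, give the count of reads for each clonotype, with no tool stated in the sources used here. Summary lines, which name no gene, took 16.8 to 23.4% of reads (multimapping reads 6.58% or more) and were left out.

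The 10 members, the gene lists and the clone lines were chosen with earlier results of these data known. GENCODE M21 matched 55227 identifiers. Comparisons were fitted one pair of groups at a time with edgeR 4.0.16 in R 4.3.3 (TMM, filterByExpr, robust quasi-likelihood test, two-sided), and p-values were adjusted by Benjamini-Hochberg over all genes tested. The error given with a log2 fold change is its standard error. All 10 members passed the filter in each comparison. Group means printed beside a test use the TMM factors of that pair, and values by library use factors over all 21 libraries, so they differ slightly. The scripts were tested on simulated data. The named genes are all members, Atf4, Myc and Mki67, up to 4 called genes of each further list by size of change (average level 5 CPM or higher), and the 5 genes most alike to Slc7a5, Phgdh and Mthfd2 by Spearman's rho of log2(CPM + 1); only part of the list genes are printed. Promoters come from RefSeq (GRCm38.p6). Tables and figures were made in Python 3.11.15.

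No libraries of a group were duplicates (lowest chi-square per gene 6.50). WT, DKO and TX1 replicates 1 to 3 are called the first set and all others the second set, as defined in an earlier look at multimapping and clonotype reads; the labels name no batch. The labels do not say that replicate numbers mark shared animals or days, so the main fits did not pair samples by number. Alternatives were DESeq2 1.42.0, other size factors, no low-count filter, a joint fit of all groups, replicate number or sex as a model term, each set, DKO labelled young left out, single or summed clone lines, and each library left out. Intervals of clonotype shares cover counting error only.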

Additional observations from a re-analysis of the deposited data

Results flagged for a closer look

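In 40 groups of values (10 members in 4 groups of libraries), 6 had a library whose gap to its nearest neighbour was large against the range of the group, where chance flags about 1 in 20 groups. TX2 replicate 6 stood apart for 3 members, being the highest for Asns (39.7893 CPM, next 11.2), Phgdh (341.622 CPM, next 282) and Slc1a5 (307.18 CPM, next 242). It also held the most B cell and neutrophil marker RNA of TX2, 153 and 114 CPM, and the part of those cells was not tested. DKO replicate 2, whose top receptor took 77.9% of alpha chain reads (95% exact interval 76.7 to 79.1%), was the highest of DKO for Slc1a5 at 339.922 CPM, with the next at 254. It held 111 CPM of Pax5, a B cell marker, but 0.846 of Cd79a, another. WT replicate 5 was the lowest of WT for Phgdh (36.7147 CPM, next 61.4) and Mthfd2 (37.1173 CPM, next 49.7).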

How the results depend on the processing

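Over all comparisons, 595 of 630 values with 1 library left out and 491 of 570 under other settings kept direction and side of the threshold. The count of members called in DKO against WT, TX2 against DKO, TX1 against WT and TX2 against WT stayed within 1.5 times of 7, 6, 8 and 9 under every setting. Directions varied within these counts. In TX2 against DKO 0 fell in the main fit, but 2 fell with line A alone or with sex, and 1 with replicate number as a block. In TX2 against WT 1 fell with line A alone or with sex. In DKO against WT 0 fell in 1 fit of all groups. In TX1 against DKO, where 5 were called, the count was 4 to 7 with 1 library left out. It was 0 in the first set and 0 without the DKO libraries labelled young, where 0 and 3 of all genes were called. The second set holds 1 TX1 library, assumed to vary like the others, so its 9 calls (8962 of 15194 genes called) and other values are no replicated test of TX1. In TX2 against TX1, where 0 were called, it was 3 with DESeq2, 3 in 1 fit of all groups, 3 with clone line A alone and 0 to 3 with 1 library left out. DESeq2, the fit of all groups and line A alone called 1435 of 16131, 1694 of 15552 and 1496 of 13089 genes in all. The cause was not tested, though fewer libraries were fitted in the sets.

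The replicate number as a block gave 7 members called in DKO against WT, 0 in TX1 against DKO (adjusted p = 0.0517 to 0.0681 for the 5 called without it), 8 in TX2 against DKO, 1 in TX2 against TX1, 8 in TX1 against WT and 8 in TX2 against WT. Over all genes it called, in the same order, 5752 of 13700, 70 of 13611, 5967 of 13570, 563 of 13089, 5691 of 13513 and 8293 of 13511. Without the block, 2743 of 13954 genes were called in TX1 against DKO. Deviations of same-numbered libraries from their group means had correlations of -0.196 to 0.348. Differently numbered libraries were not compared, so these values do not decide whether the number pairs the samples.

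Changes of sign were found for values that had not passed. Asns in TX1 against DKO was 0.21 in the second set and -0.44 to 0.16 with 1 library left out. In TX2 against DKO it was called lower with the block (-2.67, adjusted p = 0.00701) and with sex (-2.14, 0.0395), and was 1.01 with line B alone, 0.13 with lines summed and -1.49 to 0.085 with 1 left out. In TX2 against TX1 it was -0.012 without a filter, -2.69 with the block, -1.75 with sex, -0.18 in the second set, -2.69 with line A alone (called, adjusted p = 0.0219), -0.0024 in 1 fit of all groups and -1.36 to 0.34 with 1 left out. Slc38a2 was -0.24 in TX2 against DKO with line A alone. In TX2 against TX1 it was -0.73 with the block, -0.38 with sex, -0.084 in the second set, -0.78 with line A alone and -0.15 to 0.24 with 1 left out. In TX2 against WT it was called lower with sex (-0.92, adjusted p = 1.2e-05) and line A alone (-0.91, 4.15e-05), and was 0.60 with line B alone (called, adjusted p = 0.000478), 0.095 with lines summed and -0.27 to 0.020 with 1 left out, and in TX1 against WT -0.29 to 0.11. In the second set, TX2 against TX1 gave -0.12 for Slc7a5, -0.091 for Slc7a1, -0.31 for Phgdh and -0.082 for Shmt2, and Phgdh was -0.081 to 0.30 with 1 left out. Mthfd2 in TX1 against DKO was 0.51 in the second set, with 1 TX1 library. In TX1 against WT it was -0.11 with the block, -0.32 in the first set, -0.0084 in 1 fit of all groups and -0.26 to 0.18 with 1 left out.

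Other called members that were lost were Slc7a1 and Slc38a2 in DKO against WT in 1 fit of all groups (adjusted p = 0.206 and 0.111), Slc1a5 in TX2 against WT in the second set (0.0595) and Asns in TX2 against WT with the block, sex, the second set or line A alone (0.62, 0.44, 2.98 and 0.45). Depth limits Asns most, which had 17 to 30 reads in some libraries.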
